A study of Mus musculus with 9 samples.

Results

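The 2 arms of the mouse miRNA hairpin miR-126a, listed as mmu-miR-126a-3p and mmu-miR-126a-5p, were followed through small RNA libraries of extracellular vesicles shed by cultured podocytes. They were found by their identifiers among the 1915 mouse miRNA identifiers of each library's count table, and both were present in all 9 tables. Podocytes are the epithelial cells that cover the outside of the capillaries in the kidney filter, and the cells here were a conditionally immortalized mouse line, which grows at a lower temperature with interferon-γ and matures when warmed without it. After 10 days of maturation with 5% fetal bovine serum, cells spent 48 h in 1 of 3 media, 3 libraries each: high glucose (HG, 30 mM), mannitol (MA, 5.3 mM glucose plus mannitol at 24.7 mM to match the osmolality), and normal glucose (NG, 5.3 mM). All groups share the line, the serum and the isolation of vesicles by polymer precipitation, and whether serum was cleared of its own vesicles is not given in the labels. No library comes from endothelial cells, so the data show what the vesicle preparation of a podocyte culture holds of these miRNAs and not their level in endothelium.

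The hairpin of miR-126a is transcribed with Egfl7, a gene for a secreted protein made mainly by the endothelial cells that line blood vessels, and miR-126 is among the best known endothelial miRNAs. A hairpin is cut into a 3p and a 5p strand. The 3p strand represses Spred1 and Pik3r2, inhibitors of the signalling that VEGF starts, and the 5p strand represses Dlk1, which restrains endothelial growth. In the kidney filter endothelium and podocytes face each other across the basement membrane, and podocytes supply the endothelium with VEGF. Platelets and blood plasma also carry miR-126, and its plasma level has been studied in diabetes.

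The sequences are shown because the files list antisense identifiers at the same place, so what could be counted as which miRNA matters. They come from RefSeq (GRCm38.p6, the assembly called mm10 in the submitters' processing notes), whose table has a mature entry for 1 of the 2 arms and for 403 of the 479 identifiers listed above 0 in any library. The Mir126a hairpin lies on the plus strand at chr2:26591357-26591429. In the GENCODE annotation of that assembly it is in an intron of 8 of the 9 Egfl7 transcripts that span it, and inside an exon of a transcript that retains the intron. It is also in an intron of Gm20532, which overlaps Egfl7 on the same strand. Capitals in the hairpin mark the bases of miR-126a-3p at chr2:26591402-26591423, and capitals in the mature miRNAs mark the seed, bases 2 to 8, which pairs with targets.
Mir126a hairpin: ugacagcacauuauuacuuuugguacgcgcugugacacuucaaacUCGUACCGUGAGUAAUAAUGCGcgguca
miR-126a-3p: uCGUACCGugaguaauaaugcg
miR-126b-5p: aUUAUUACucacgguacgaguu
miR-126b-3p: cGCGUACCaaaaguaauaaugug

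Mir126b is the antisense hairpin, on the minus strand at chr2:26591363-26591420, and all 58 of its bases are the reverse complement of bases of Mir126a. Of the 22 bases of miR-126a-3p, 19 pair with miR-126b-5p. Both arms of miR-126b were listed at 0 in every library, which means at most 9 reads each, while miR-126a-3p had 341 or more counts. No identifier had the counts of a miR-126a arm in all libraries, and none of the 1679 mature entries in the sequence table shares the seed of miR-126a-3p.

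Total miRNA counts ran from 725211 to 2553690 per library. Levels are given as CPM, a library's miRNA counts scaled to a total of 1000000, and intervals in brackets are exact 95% binomial intervals, which cover counting error only, since reads are not independent molecules. No table holds a count from 1 to 9, so an arm listed at 0 had 0 to 9 reads, and the CPM that 9 reads would give is stated as its limit. The labels name no separate cultures behind the replicates. The p-values therefore measure the spread between these libraries, which may be technical. In such bulk preparations, more vesicles that carry a miRNA and more of it per vesicle cannot be told apart.

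miR-126a-3p was present in every library at a middle level, and on the CPM scale its libraries differed most in high and normal glucose. In high glucose it had 473, 353 and 892 counts in replicates 1 to 3, which are 652 CPM (595 to 714), 276 CPM (248 to 307) and 349 CPM (327 to 373). With mannitol it had 399, 536 and 713 counts, or 300 CPM (271 to 331), 337 CPM (309 to 367) and 314 CPM (291 to 338). In normal glucose it had 341, 424 and 875 counts, or 221 CPM (199 to 246), 390 CPM (354 to 429) and 790 CPM (739 to 844). The highest library, normal glucose replicate 3, and the lowest, normal glucose replicate 1, thus belong to the same group, and on the CPM scale high glucose replicate 1 stands above the other high glucose libraries. That library had the lowest total, 725211 counts, and the largest ratio of the constant behind the deposited normalized values (RPM) to the total, 29.2, and its 22.4 RPM lay between the 15.4 and 28 RPM of replicates 2 and 3. All 3 pairs of groups overlap. On the CPM scale the mannitol libraries lie inside the range of both other groups. On the RPM scale mannitol replicate 3, at 30.5 RPM, lies above the highest high glucose library, at 28 RPM. With the TMM scaling of libraries used in the fits below, mannitol replicates 1 and 3 had 255 and 304 CPM. Both lie below the lowest high glucose library on that scale, at 322 CPM.

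**Figure D1:**
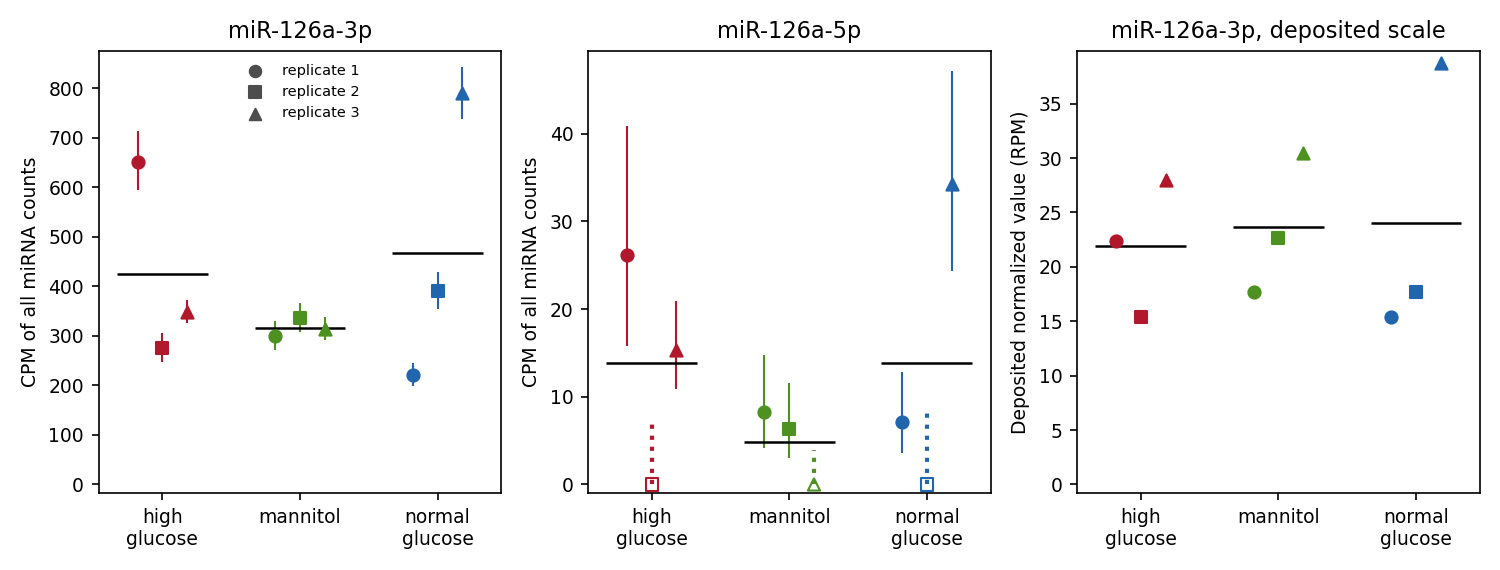
Level of each miR-126a arm in each library (y axis: CPM of all miRNA counts in the left and middle panels, the deposited RPM value in the right panel) by medium (x axis). Filled symbols are libraries with exact 95% binomial intervals where CPM is shown, open symbols with dotted lines are libraries listed at 0 with the level that 9 reads would give, and black bars are group means. Normal glucose replicate 3 is highest in all 3 panels, and the mannitol libraries span 300 to 337 CPM for miR-126a-3p.

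Over 3 libraries each, miR-126a-3p averaged 426 ± 199 CPM (SD) in high glucose, 317 ± 18.8 CPM (SD) under mannitol and 467 ± 292 CPM (SD) in normal glucose. The order of means was normal glucose, high glucose, mannitol, and neighbours in it did not differ beyond the spread between libraries. The highest library exceeded the lowest 2.36-fold in high glucose, 1.12-fold with mannitol and 3.57-fold in normal glucose. On the deposited RPM scale these ratios were 1.81, 1.72 and 2.51 in the same groups, so the narrow range under mannitol holds for CPM and not for RPM. In both high and normal glucose the counting intervals of the 3 libraries do not touch, so the spread there is larger than counting error, while those of the mannitol libraries overlap. The miRNA took between 0.0221% and 0.079% of a library's miRNA counts, and ranked from 82nd of 347 listed miRNAs in normal glucose replicate 3 downward, with its lowest rank in normal glucose replicate 1. By the mean over all 9 libraries, 403 CPM, it was number 104 of the table. Next above stood miR-218-5p at 413 CPM and miR-17-5p, a member of a growth-promoting cluster, at 414 CPM. Next below stood miR-34b-3p at 386 CPM and miR-34c-3p at 383 CPM, which derive from hairpins that p53 induces.

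The spread of miR-126a-3p between libraries of a group was above that of most miRNAs. On the log2 scale, with TMM scaling of the libraries, its pooled SD within groups was 0.59, and the median over the 260 miRNAs listed in all libraries was 0.43. Of those miRNAs 59 had a larger SD. Among the other 48 whose mean level was within 2-fold of its own, 8 had a larger SD and the median was 0.40.

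**Figure D2:**
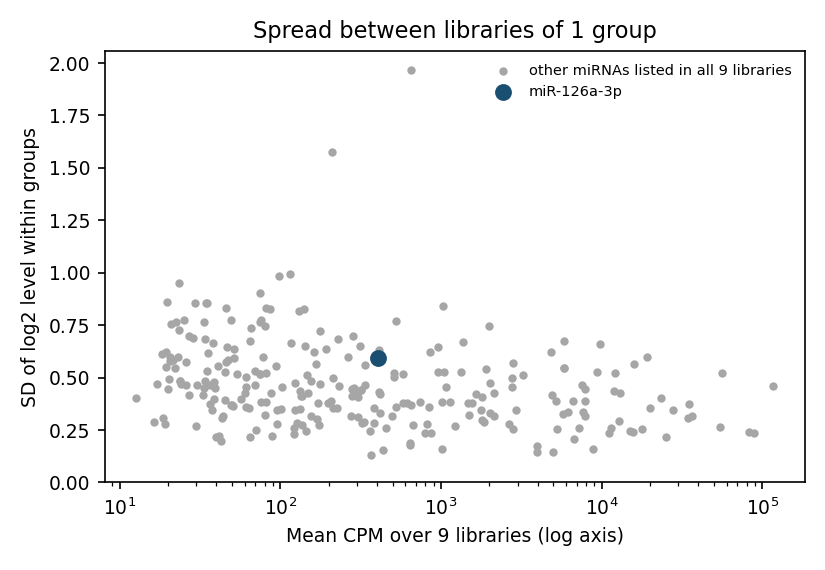
Pooled SD of the log2 level within groups (y axis) against the mean CPM over all 9 libraries (x axis, log axis), 1 point for each of the 260 miRNAs listed in all libraries. miR-126a-3p, at 0.59, lies above the median of 0.43.

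miR-126a-5p was close to the lower limit of the tables. It had 19 counts in high glucose replicate 1 and 39 in replicate 3, which are 26.2 CPM (15.8 to 40.9) and 15.3 CPM (10.9 to 20.9), and was listed at 0 in replicate 2, where 9 reads would be 7.05 CPM. With mannitol it had 11 and 10 counts in replicates 1 and 2, or 8.27 CPM (4.13 to 14.8) and 6.29 CPM (3.02 to 11.6), and was listed at 0 in replicate 3, with a limit of 3.97 CPM. In normal glucose it had 11 and 38 counts in replicates 1 and 3, or 7.15 CPM (3.57 to 12.8) and 34.3 CPM (24.3 to 47.1), and was listed at 0 in replicate 2, with a limit of 8.28 CPM. Every group thus has 2 libraries that list the arm and 1 where it is at 0, and the groups overlap. The libraries highest in the 5p arm, normal glucose replicate 3 and high glucose replicate 1, are also those highest in the 3p arm on the CPM scale. On the RPM scale normal glucose replicate 3 was highest in both arms, but the next highest was high glucose replicate 3 for the 5p arm (1.22 RPM) and mannitol replicate 3 for the 3p arm (30.5 RPM). Means over 3 libraries, with listed zeros as 0, were 13.8 ± 13.2 CPM (SD) in high glucose, 4.86 ± 4.32 CPM (SD) under mannitol and 13.8 ± 18.1 CPM (SD) in normal glucose, and the SD was close to or above the mean in each.

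Within the hairpin the 3p arm held nearly all counts. Over the 9 libraries the 3p arm had 5006 counts and the 5p arm 128, a 5p share of 2.49%. In high glucose the 5p share was 3.86% (2.34 to 5.97) in replicate 1 and 4.19% (3 to 5.68) in replicate 3, and at most 2.49% in replicate 2, where the arm was listed at 0. With mannitol it was 2.68% (1.35 to 4.75) and 1.83% (0.882 to 3.34) in replicates 1 and 2, and at most 1.25% in replicate 3. In normal glucose it was 3.12% (1.57 to 5.52) in replicate 1, 4.16% (2.96 to 5.67) in replicate 3 and at most 2.08% in replicate 2. Mannitol replicate 3 had 713 counts of the 3p arm and the lowest of these limits. A limit is the share that 9 reads would give and holds no counting error. It therefore cannot be compared with the intervals of the other libraries. The share does not depend on how libraries are scaled.

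**Figure D3:**
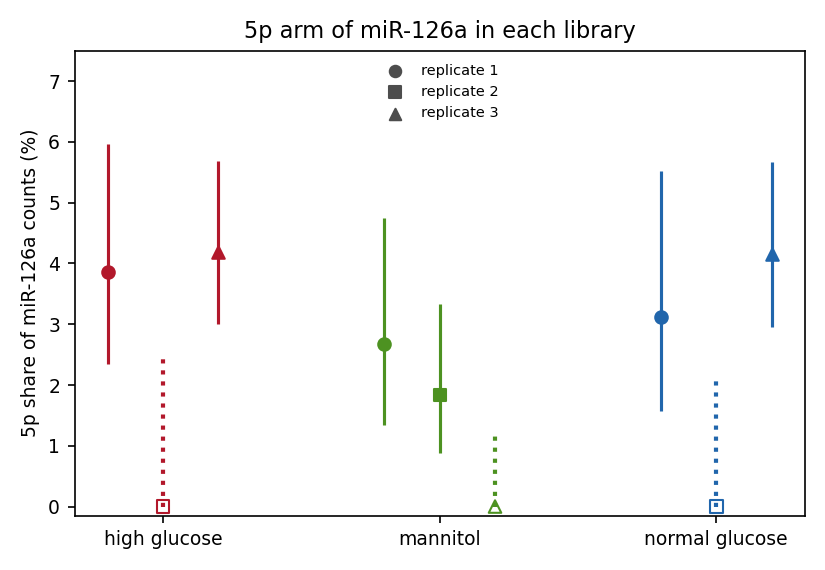
Share of miR-126a counts on the 5p arm (y axis, percent) in each library by medium (x axis), with exact 95% binomial intervals as lines. Open symbols with dotted lines are libraries where the 5p arm was listed at 0, and the line ends at the share that 9 reads would give. The groups overlap, and the highest share is 4.19% in high glucose replicate 3.

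Mean 5p shares were 2.68% ± 2.33 in high glucose, 1.50% ± 1.37 with mannitol and 2.43% ± 2.17 in normal glucose (SD, n = 3 each, listed zeros as 0). Exact permutation tests (two-sided, 3 libraries against 3, where no p below 0.1 is possible) gave p = 0.8 for high glucose against normal glucose, p = 0.6 for high glucose against mannitol and p = 0.6 for mannitol against normal glucose. With listed zeros set to 9 reads the mean shares were 3.51% in high glucose, 1.92% with mannitol and 3.12% in normal glucose, and the exact permutation p was 0.2 for each comparison with mannitol. Leaving out 1 library moved the difference between high glucose and mannitol, 1.18 percentage points, to 0.43 (without high glucose replicate 3, and likewise without mannitol replicate 3) or 2.52 (without high glucose replicate 2). It moved that between mannitol and normal glucose, -0.92 percentage points, to -0.06 (without normal glucose replicate 3) or -2.14 (without normal glucose replicate 2). With the tests on CPM below the tests with listed zeros as 0 are 9 exact tests, and their Benjamini-Hochberg adjusted p was 0.9 or 1. The pooled 5p share of 2.49% was above the minor-arm share of most hairpins. Of the 72 other hairpins with both arms in the tables and at least as many counts, 57 had a smaller share on their minor arm, with a median of 0.0879%, and in 24 the minor arm was listed at 0 in all libraries. The 3p arm was the major one in 36 of these 72.

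High glucose against normal glucose asks for the effect of the medium as a whole. Neither arm passed in edgeR, beside 0% of all 361 miRNAs tested. miR-126a-3p, with mean levels as given above, differed by -0.06 on the log2 scale (SE 0.39, 95% interval -0.90 to 0.78), with an edgeR quasi-likelihood adjusted p of 0.995. High glucose was higher in 4 of 9 pairs of libraries, and the exact permutation p for CPM was 0.8. The interval reaches from 0.536-fold to 1.72-fold, so true changes within it remain possible at this spread. Without normal glucose replicate 3 the log2 fold change was 0.42, and the sign also turned without high glucose replicate 2 (0.21) or replicate 3 (0.11), and with the replicate numbers of the titles as a block (0.03). The 5p arm had a log2 difference of 0.11 (SE 1.79, interval -3.69 to 3.92), with an edgeR adjusted p of 0.995 and an exact permutation p of 1. Its values without 1 library ran from -0.57 (without high glucose replicate 1) to 1.91 (without normal glucose replicate 3). At an unadjusted p under 0.05 the share of the 361 miRNAs was 2.77%. The groups did not overlap for 9.42% of them, against 0 of the 2 arms.

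High glucose against mannitol compares media of the same osmolality. Both arms had positive fold changes in edgeR, and neither passed, beside 0% of the 361 miRNAs. The mean CPM of miR-126a-3p was 1.34 times as high in high glucose. With TMM scaling in edgeR miR-126a-3p differed by 0.52 on the log2 scale (SE 0.40, 95% interval -0.32 to 1.36), with an edgeR adjusted p of 0.767. High glucose was higher in 6 of 9 pairs of libraries (exact permutation p = 0.6). Without high glucose replicate 1 the log2 fold change was 0.20. Set against the deposited RPM scale the sign turned: there miR-126a-3p averaged 21.9 ± 6.28 RPM in high glucose and 23.7 ± 6.42 RPM under mannitol (SD, n = 3 each), and its log2 fold change in edgeR was -0.11. On that scale the median of all tested miRNAs was -0.59, against -0.04 with TMM scaling, and relative to the median miR-126a-3p had 0.48, against 0.56. For miR-126a-5p the log2 difference was 1.59 (SE 1.85, interval -2.36 to 5.53; edgeR adjusted p = 0.891), and high glucose was higher in 6 of 9 pairs (exact permutation p = 0.4). It had 0.12 with the replicate numbers of the titles as a block (edgeR adjusted p = 0.986) and 0.91 without high glucose replicate 1. With listed zeros set to 9 reads its log2 fold change was 1.46 at an unadjusted edgeR p of 0.0192, against 0.399 with zeros as 0. The edgeR adjusted p was 0.475, and the exact permutation p for CPM was 0.2. In edgeR this setting gave the zeros of all tested miRNAs the same value. For this arm that narrows the spread within groups, on which the p-value rests. Of the 361 miRNAs 5.26% had an unadjusted p under 0.05, and the groups did not overlap for 10.2%, against 0 of the 2 arms.

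Mannitol against normal glucose measures added osmolality without added glucose, and shares its libraries with the comparisons before. Both arms had negative fold changes without passing, beside 0% of the 361 miRNAs. The mean CPM of miR-126a-3p under mannitol was 0.679 times that in normal glucose. With TMM scaling in edgeR miR-126a-3p differed by -0.58 on the log2 scale (SE 0.40, 95% interval -1.42 to 0.27), with an edgeR adjusted p of 1. Mannitol was higher in 3 of 9 pairs (exact permutation p = 0.7). The value was -0.10 without normal glucose replicate 3, and -0.92 without normal glucose replicate 1 (edgeR adjusted p = 0.986). On the RPM scale the means were 23.7 ± 6.42 RPM under mannitol and 24.0 ± 12.9 RPM in normal glucose (SD, n = 3 each), with a log2 fold change of -0.02 where the median of all tested miRNAs was 0.50. miR-126a-5p had -1.47 (SE 1.84, interval -5.40 to 2.45, edgeR adjusted p = 1). The sign turned without normal glucose replicate 3 (0.32) and with the replicate numbers of the titles as a block (0.11). With listed zeros set to 9 reads, which again narrows the spread within groups, it had -1.40 at an unadjusted edgeR p of 0.0243. The edgeR adjusted p was 0.998, and the exact permutation p for CPM was 0.2. DESeq2 and limma-voom called neither arm in any of the 3 comparisons. Of the 361 miRNAs 1.39% had an unadjusted p under 0.05, and the groups did not overlap for 3.32%, against 0 of the 2 arms.

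**Figure D4:**
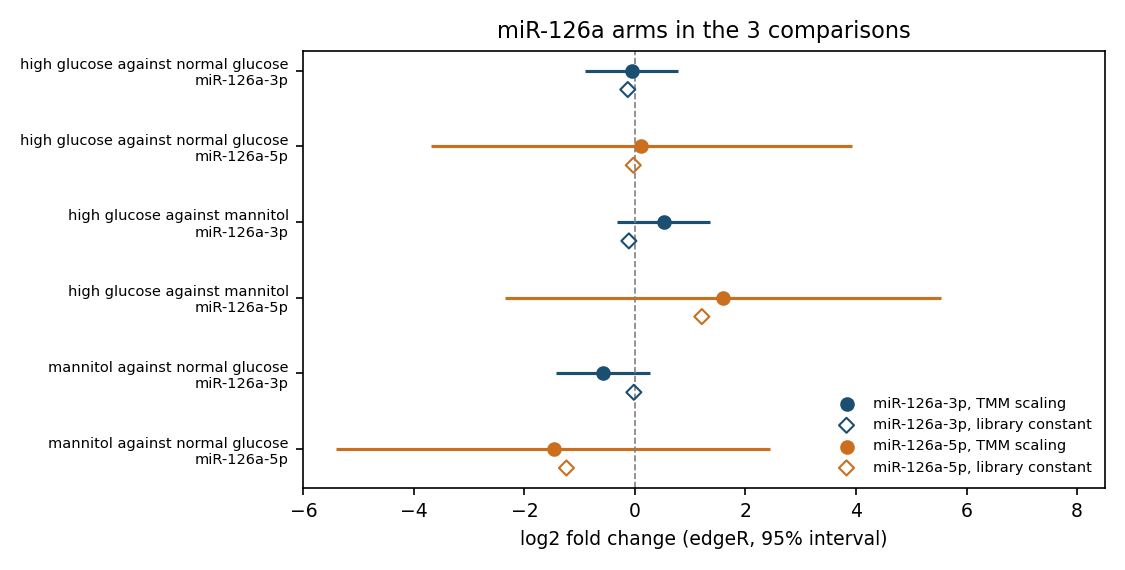
Log2 fold change (x axis) of each arm in the 3 comparisons (y axis). Filled circles are edgeR values with TMM scaling and 95% intervals as lines, and open diamonds are edgeR values scaled to the constant behind the deposited RPM values. All 6 intervals include 0, and those of miR-126a-5p are the wider ones.

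Levels of miR-126a-3p over the 9 libraries were most like those of miR-146a-5p, a regulator of NF-kB signalling. Over log2(CPM + 1) Pearson's r was 0.82 and Spearman's rho 0.70, and the median r of all 259 miRNAs compared was 0.03. miR-146a-5p had 211, 176 and 182 CPM in high glucose, 148, 194 and 196 CPM under mannitol, and 159, 166 and 351 CPM in normal glucose, and so was highest in normal glucose replicate 3 as well. Next came miR-381-3p (r = 0.79, rho = 0.60) and miR-411-5p (r = 0.76, rho = 0.58), both from the imprinted Dlk1-Dio3 locus. Of these, miR-411-5p was close to the lower limit of the tables, at 8.37 to 21.7 CPM. In high glucose replicate 1, where it had 15.2 CPM, 9 reads would be 12.4 CPM. All 3 likenesses rest on normal glucose replicate 3 and high glucose replicate 1. Without these libraries r was 0.34 for miR-146a-5p, 0.16 for miR-381-3p and 0.22 for miR-411-5p. These values describe 9 libraries that share their CPM denominators.

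miR-126a was set beside other groups of miRNAs in the same libraries, as levels in CPM. The podocyte-associated miR-30 family far exceeded it: its summed level over 5 members was 149949 to 224982 CPM in high glucose, 106713 to 177083 with mannitol and 126420 to 140209 in normal glucose. Its leading member miR-30a-5p had between 135 counts per count of miR-126a-3p, in normal glucose replicate 3, and 650, in high glucose replicate 2. All 5 members were tested and 0 passed in edgeR, with log2 fold changes of 0.79 for miR-30a-5p and 0.17 for miR-30d-5p in high glucose against normal glucose. Positive fold changes numbered 5, 5 and 1 in high glucose against normal glucose, high glucose against mannitol and mannitol against normal glucose, with medians of 0.17, 0.41 and -0.08. Over all 361 miRNAs tested they numbered 168, 168 and 188 in the same order. Of the 4 identifiers of the endothelial-associated list, only both miR-126a arms were listed. A further list held 16 miRNAs chosen as abundant in endothelium but not specific to it, and 14 of them could be tested. Its member miR-216a-5p, known from pancreas, was listed at 0 throughout, and miR-217-5p had 15 counts over all libraries. In edgeR 0 of the 14 passed in any comparison, with 5, 7 and 5 positive fold changes in high glucose against normal glucose, high glucose against mannitol and mannitol against normal glucose. Their medians were -0.08, -0.01 and -0.04, beside -0.04, -0.04 and 0.01 over all 361 miRNAs. The most abundant of them were miR-10a-5p, from a Hox cluster, at 78307 ± 13389 CPM in high glucose, 87434 ± 20009 CPM under mannitol and 100346 ± 5650 CPM in normal glucose, and miR-24-3p at 15217 ± 1474, 16911 ± 2364 and 14840 ± 2538 CPM in the same groups (mean ± SD of 3 libraries). miR-146a-5p, named above, is on this list too.

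Blood carries miR-126 too, so miRNAs of red cells, platelets, immune cells and liver were read beside it. Their summed level over 9 identifiers was 16480 to 29940 CPM in high glucose, 19134 to 44102 CPM with mannitol and 21296 to 38946 CPM in normal glucose. The liver miRNA miR-122-5p led at 13668 ± 6430 CPM in high glucose, 17046 ± 5427 CPM under mannitol and 17097 ± 6636 CPM in normal glucose. The erythroid miR-486b-5p followed at 3680 ± 660 CPM in high glucose, 7612 ± 3587 CPM under mannitol and 6345 ± 1916 CPM in normal glucose (mean ± SD of 3 libraries). miR-486a-5p and miR-486b-5p have the same count in every library, so the tables do not separate them and the sums and counts of this list hold them both. The immune miRNA miR-142a-3p was listed at 0 throughout. Of 7 tested, 0 passed in edgeR, and 2, 2 and 3 had positive fold changes in the comparisons in the order above, with medians of -0.29, -0.57 and -0.05. In normal glucose replicate 3, where miR-126a-3p was highest, the sum was 29814 CPM, between the 21296 and 38946 CPM of replicates 1 and 2. The summed mesenchymal miRNAs were also highest in that library, with 3428 CPM over 5 members in normal glucose replicate 3, against 1122 and 1534 CPM in replicates 1 and 2. Most of that sum was miR-143-3p, known from smooth muscle, at 2861 CPM there, while miR-199a-3p had 350 CPM there and up to 403 CPM in mannitol replicate 2. In high glucose replicate 1, the other library high in miR-126a-3p, the mesenchymal sum was 1606 CPM, the lowest of the high glucose libraries, while the blood sum was 29940 CPM, the highest of them. The kidney tubule list, led by miR-192-5p and miR-194-5p of one cluster, with miR-204-5p at 0, also had its highest sum of that group there, 5008 CPM. All 5 mesenchymal and 3 of the 4 tubule miRNAs were tested and 0 passed in edgeR. In the order of comparisons above, 4, 4 and 3 mesenchymal miRNAs had positive fold changes (medians 0.04, 0.32 and 0.14), as did 3, 3 and 2 of the tubule (medians 0.58, 0.49 and 0.10). Beside these lists, 168, 168 and 188 of all 361 miRNAs tested had positive fold changes. The part of other cells or of serum in the level of miR-126a was not tested.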

How the data were processed

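Per the labels, small RNA of vesicles from podocyte culture medium was sequenced in 9 libraries, 3 per medium, after adapter ligation and gel size selection. The submitters' processing notes name bcl2fastq, BWA and the build mm10; their versions and settings, and the miRNA annotation, are not stated there. The deposited tables hold total counts per miRNA, used as deposited. Their second column holds deposited normalized values, here called RPM, proportional to the count within a library. The constant behind them is 10.3 to 29.2 times the sum of miRNA counts, and the submitters' notes as used here do not define it.

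Groups come from the treatment label. The number in each title was taken as the replicate, and 1 where a title had none. No libraries were identical, and chi-square per degree of freedom between libraries of a group was 74.8 or more. Fold changes, SE and intervals came from 1 edgeR 4.0.16 fit of all 9 libraries in R 4.3.3 (TMM scaling, expression filter by group, robust quasi-likelihood test). Benjamini-Hochberg adjustment ran over 361 miRNAs, with a threshold of 0.05. Alternatives used DESeq2 1.42.0, limma 3.58.1 (voom), other scalings and filters, and libraries left out. Fits were tested on simulated data that had the same spread for all miRNAs and no lower limit of counts. That test therefore does not cover the spread and the listed zeros of miR-126a-5p. Deviations of same-numbered libraries from their group means correlated at 0.169 to 0.521 over the 6 pairs with high glucose. In mannitol against normal glucose the correlations were -0.058 to 0.229. Differently numbered libraries reached 0.112 in the comparisons with high glucose (high glucose replicate 1 and mannitol replicate 3), below all same-numbered pairs there. In mannitol against normal glucose they reached 0.199 (mannitol replicate 2 and normal glucose replicate 3), inside the range of the same-numbered pairs. Equal numbers thus went with likeness in the comparisons with high glucose, and whether they mark pairs was not tested. The main fit did not use these numbers.

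The members, lists and tests were chosen with earlier results of these data known. Named besides the arms were the 3 miRNAs most like miR-126a-3p by Pearson's r, its neighbours in mean CPM, and the 2 most abundant tested members of each list, since no member passed the threshold.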

Additional observations from a re-analysis of the deposited data

How the results depend on the processing

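Neither arm passed in any comparison under any of the 102 alternative fold changes computed (smallest adjusted p 0.383, smallest unadjusted p 0.0192). That unadjusted p came from edgeR with listed zeros set to 9 reads. The exact tests cannot go below 0.1 and so say nothing of stability. Of their 84 alternatives 3 reached that floor, namely miR-126a-3p and miR-126a-5p in high glucose against mannitol without high glucose replicate 2, and miR-126a-3p in mannitol against normal glucose without normal glucose replicate 1. The sign of several fold changes was not stable, both near 0 and further from it. For high glucose against normal glucose, miR-126a-3p (log2 -0.06) had 0.05 by limma-voom and 0.03 with the replicate block, and miR-126a-5p (0.11) had -0.03 scaled to the library constant. For high glucose against mannitol, miR-126a-3p (0.52) had -0.11 scaled to the library constant, and the log2 ratio of its group means (0.43) was -0.11 on the deposited RPM values. For mannitol against normal glucose, miR-126a-5p (-1.47) had 0.11 with the replicate block. Same-numbered libraries were more alike than differently numbered ones in the comparisons with high glucose, but not clearly in mannitol against normal glucose. The block changed no call. The miRNAs with an unadjusted edgeR p under 0.05 numbered 10, 19 and 5 without the block and 19, 52 and 17 with it. The order is high glucose against normal glucose, high glucose against mannitol, mannitol against normal glucose. Paired exact tests cannot go below 0.25.

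With 1 library left out, log2 fold changes in high glucose against normal glucose ran from -0.40 to 0.42 for miR-126a-3p and from -0.57 to 1.91 for miR-126a-5p, and in mannitol against normal glucose from -2.04 to 0.32 for miR-126a-5p. The log2 ratio of mean CPM of miR-126a-3p ran from -0.58 to 0.48 in high glucose against normal glucose, from -0.02 to 0.66 in high glucose against mannitol and from -0.90 to 0.05 in mannitol against normal glucose. That of miR-126a-5p ran from -2.13 to 0.44 in mannitol against normal glucose. The 5p share difference in high glucose against normal glucose ran from -0.96 to 1.60 percentage points.

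The count of all miRNAs called was 0 in each comparison and with each library left out. Without the expression filter it was 2 in high glucose against normal glucose (miR-9-5p and miR-6538), 3 in high glucose against mannitol (miR-1a-3p, miR-19b-3p and miR-6538) and 1 in mannitol against normal glucose (miR-1a-3p). Of these, miR-6538 was listed in only 3 of 9 libraries, with at most 322 counts. The pooled log2 SD of miR-1a-3p within groups was 1.97, against a median of 0.43 over miRNAs listed in all libraries. DESeq2 called 1 in high glucose against mannitol, miR-182-5p (log2 0.60, adjusted p = 0.012). These were named after their values were seen, and the cause was not tested.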
